A study of Mus musculus with 6 samples.

Results

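The interferon gamma-inducible GTPases and the transcription factor Irf1 were followed across colon tissue of wild type and Otud1-/- mice. The set held 10 genes of the 21374 in the expression table, taken by symbol after the gene identifiers had been matched to mouse symbols: the cytokine gene Ifng, Irf1, 4 guanylate-binding protein genes (Gbp2, Gbp3, Gbp6, Gbp7) and 4 immunity-related GTPase genes (Irgm1, Irgm2, Igtp, Iigp1). Of the 10 genes, 9 had a lower estimated level in the libraries labelled Otud1-/-, where 48.3% of all tested genes had a negative change. In 5 of the 9 (Irf1, Gbp2, Gbp7, Irgm1 and Igtp) every library labelled Otud1-/- lay below every wild type library. The same held for 13.3% of all tested genes and for 19.3% of those at least as abundant as Gbp6. The log2 changes of those 9 ran from -0.79 for Irf1 to -0.22 for Gbp3, and none of the 10 passed an adjusted p of 0.05 in the limma fit over all genes. Ifng itself had 18 reads in the 6 libraries together, and its direction could not be read.

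All mice were male C57BL/6. At 6 weeks of age they received an injection of azoxymethane (AOM, a colon carcinogen), then drank dextran sulfate sodium (DSS, which injures the colonic epithelium) at 1.5% for 4 days followed by 14 days of water, in 3 such cycles. On day 81, at 18 weeks of age by the labels, distal colon beside the tumours was taken for bulk RNA sequencing, with 3 libraries of genotype wild type and 3 of genotype Otud1-/-. Otud1 encodes a deubiquitinase. Both genotypes had the carcinogen and the irritant, no untreated colon is used here, and the labels state neither how the deletion was made nor whether each library came from its own animal. The p-values therefore measure the spread between these libraries, part of which may be technical.

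Interferon gamma is released mainly by T cells and natural killer cells and binds a receptor that works through the kinases Jak1 and Jak2. Its signal reaches gamma-activated sites (GAS) in promoters and induces Irf1 early, and Irf1 in turn binds interferon-stimulated response elements (ISRE) in a later wave of genes. The guanylate-binding proteins and the smaller immunity-related GTPases are among the most strongly induced of these in mice, and they attack the membranes of vacuoles that hold intracellular bacteria and parasites. In the gut the same programme is known from infection and colitis, in epithelium as well as in macrophages.

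The libraries held 15300937 to 19406407 reads assigned to genes. The colon markers Car1, Muc2 and Hoxb13 had reads in every library, as the tissue label requires. Otud1 went against its label. In normalised reads, which are reads divided by a size factor for each library, the wild type libraries held 111, 45.1 and 48.9 and the Otud1-/- libraries 141, 149.6 and 208 (values run from library 1 to library 3 throughout). It was thus higher in every library labelled Otud1-/-, by 1.37 ± 0.35 (SE) on the log2 scale (limma, Benjamini-Hochberg adjusted p = 0.0934), with an exact two-sided permutation p of 0.1, the smallest that 3 against 3 libraries allow. Directions are therefore given between the libraries as labelled. In all, 202 of 21281 tested genes were called, which is 0.949%, with 142 lower (0.667%) and 60 higher (0.282%).

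The promoters of the set were read first, since the GAS and the ISRE are the elements through which the pathway is known to reach these genes. RefSeq windows of 250 bases before to 50 after the annotated start (GRCm38.p6) were used for 8 of the 10 genes. No window was used for Gbp6 or Iigp1, so their promoters were not read. Searched on both strands, the GAS letters TTCNNNGAA were present in 8.3% of 32851 mouse windows and the core of the ISRE in 3.44%. All 6 GTPase genes with a window used here held the ISRE core. Of them, 3 (Gbp7, Irgm2 and Igtp) also held a GAS, a combination found in 0.454% of windows. Irf1 held a GAS at positions -90 to -82 from its start and no ISRE core, and Ifng held a GAS at -249 to -241. The RefSeq starts of Gbp2, Gbp3, Irgm1 and Irgm2 lie inside the gene spans printed below, which come from another annotation. The ISRE cores of Gbp2, Irgm1 and Irgm2 therefore also fall inside those spans. The 120 bases before the RefSeq start are given here in the direction of transcription, with matches to either motif in capitals. Shown are those of Irf1 and of 5 GTPase genes of both families. They lie at chr11:53769894-53770013 (plus strand) for Irf1, chr3:142620543-142620662 (plus) for Gbp2, chr3:142530216-142530335 (plus) for Gbp7, chr11:48871421-48871540 (minus) for Irgm1, chr11:58214857-58214976 (plus) for Irgm2 and chr11:58199436-58199555 (plus) for Igtp.
Irf1: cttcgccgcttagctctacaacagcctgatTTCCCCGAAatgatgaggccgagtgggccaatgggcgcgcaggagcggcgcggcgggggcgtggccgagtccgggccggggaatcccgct
Gbp2: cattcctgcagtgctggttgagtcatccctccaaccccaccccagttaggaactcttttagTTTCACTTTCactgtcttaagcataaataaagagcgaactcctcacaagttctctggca
Gbp7: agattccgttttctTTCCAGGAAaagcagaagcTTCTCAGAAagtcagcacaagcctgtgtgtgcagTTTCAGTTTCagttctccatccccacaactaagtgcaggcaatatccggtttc
Irgm1: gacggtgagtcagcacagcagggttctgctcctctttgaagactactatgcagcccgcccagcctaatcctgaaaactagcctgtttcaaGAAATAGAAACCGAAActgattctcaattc
Irgm2: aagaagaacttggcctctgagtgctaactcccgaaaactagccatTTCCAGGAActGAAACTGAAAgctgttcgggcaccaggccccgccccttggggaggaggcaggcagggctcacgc
Igtp: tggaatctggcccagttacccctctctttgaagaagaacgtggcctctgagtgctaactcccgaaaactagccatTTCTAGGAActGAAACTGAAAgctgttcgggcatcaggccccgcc

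In Gbp2, Gbp3 and Gbp7 the ISRE core lay on the strand opposite to the gene (capitals TTTCACTTTC in Gbp2, TTTCAGTTTC in Gbp7), at -59 in Gbp2, -53 in Gbp7 and at a pair of overlapping positions, -45 and -39, in Gbp3. In Irgm1, Irgm2 and Igtp it lay on the strand of the gene, at -64 in Irgm2, -34 in Igtp and at overlapping positions -30 and -24 in Irgm1. Gm12250, another immunity-related GTPase gene, held it on the opposite strand at -91 and -46. No GAS match overlapped an ISRE match in these 8 windows. Irgm2 and Igtp shared the same arrangement, a GAS followed by an ISRE core whose start lay 11 bases further on, although at different distances from the annotated start. That spacing, which was picked after the matches had been seen, occurred in 5 of the 32851 windows (0.0152%): those of Igtp, Irgm2, Tgtp1, Tgtp2 and Gm12185, all immunity-related GTPase genes. The windows of Igtp and Irgm2 aligned over 270 columns with 244 identical (90.4%), so these 2 windows are near copies of each other and not independent cases. Of the 11 other genes of both families with a window used here, 7 held the ISRE core and 5 a GAS. A match is a description of the letters and does not show binding, which was not measured.

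**Figure D1:**
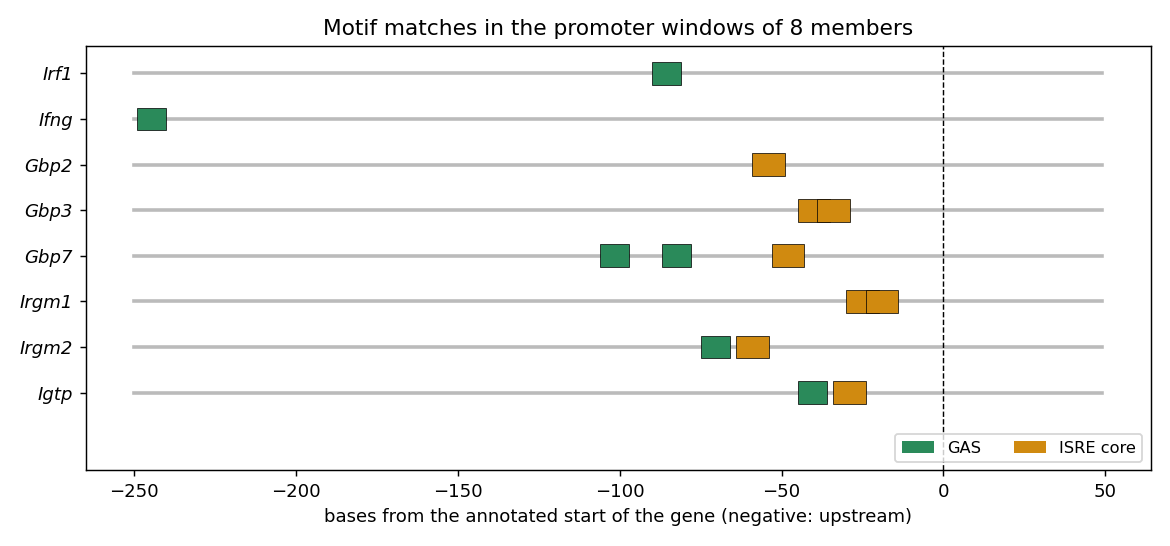
Matches to the GAS (green) and the ISRE core (orange) in the promoter windows of 8 genes, plotted by distance in bases from the annotated RefSeq start (dashed line; negative is upstream); grey lines span each window. All 6 GTPase genes shown carry at least 1 ISRE core within 64 bases of the start, and in Irgm2 and Igtp a GAS stands directly before it.

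Irf1 (ENSMUSG00000018899.16, chr11:53770014-53778374 in GRCm38, plus strand, 12 merged exons), the transcription factor that relays the first wave to the second, had the smallest limma p-value of the set with all 6 libraries. It had 4728, 5036 and 4769 normalised reads in wild type and 2229.8, 3521 and 2803 in the libraries labelled Otud1-/-. The wild type libraries lay close together and all Otud1-/- libraries were lower, with Otud1-/- 1 the lowest and Otud1-/- 2 nearest to wild type. The means were 4844 ± 168 (SD, n = 3) and 2851.5 ± 647 (SD, n = 3), so the mean was 41.1% lower. The log2 change was -0.79 ± 0.16 (SE), with a limma adjusted p of 0.0558, which just missed the threshold. DESeq2 on the recovered whole reads gave 0.0032, edgeR 0.0867 and limma with sample weights 0.0187, settings under which 4.42% (DESeq2, lower), 0.37% (edgeR, either direction) and 1.62% (weights, lower) of all tested genes were called. Leaving out Otud1-/- 2 gave a change of -0.95 (limma adjusted p = 0.0249, where 1.32% of genes were called lower) and leaving out Otud1-/- 1 gave -0.62 (0.0488, with 0.895% called lower). Irf1 was not called without Otud1-/- 3 (-0.79, limma adjusted p = 0.116) or without any 1 wild type library (0.164 to 0.192). In bulk tissue, fewer cells of a type and less RNA per cell cannot be told apart, here or in any result that follows. The exons of Irf1 overlap those of the opposite-strand Gm17334 by 135 bases, and no stretch of 50 bases of Irf1 transcripts recurred in another gene.

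Ifng (ENSMUSG00000055170.4, chr10:118441046-118445892, plus strand), the ligand, was at the limit of detection in whole colon. Its reads were 2, 5 and 1 in the wild type libraries and 0, 6 and 4 in those labelled Otud1-/-, or 2.11, 4.70 and 1.02 against 0, 6.75 and 4.04 normalised reads. The groups overlapped. In Otud1-/- 1 a count of 0 allows up to 0.165 CPM (reads scaled to a common library total; 3 reads of 18193462, counting error alone). The log2 change was 0.04 ± 0.87 (SE; limma adjusted p = 0.985). Its nominal 95% interval, from a normal approximation that is too narrow for so few libraries, was -1.66 to 1.74. Neither a fall nor a rise of this size was thus detectable at this depth. Its direction turned with the pseudocount, the scaling and single libraries. Of the 50-base stretches of Ifng, 19.9% also occur in the overlapping Gm49751 on the same strand.

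Among the guanylate-binding proteins, large GTPases that assemble on pathogen vacuoles, Gbp2 (ENSMUSG00000028270.12, chr3:142620602-142638008, plus strand) had the largest difference of the 4 in the set with all 6 libraries. Gbp2, one of the members known to reach the Toxoplasma vacuole in mouse cells, had 1279, 2182 and 1492 normalised reads in the wild type libraries and 883, 1133 and 897 in those labelled Otud1-/-. The groups did not overlap, and wild type 2 was far above the other 5 libraries. The log2 change was -0.74 ± 0.20 (SE), from a mean of 1651 ± 472 to 971 ± 140.3 (SD, n = 3 each), with a limma adjusted p of 0.109 and 0.0200 with DESeq2. Without wild type 2 the change was -0.52 (adjusted p = 0.202).

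Gbp7 (ENSMUSG00000040253.15, chr3:142530342-142550149, plus strand), which lies in the same cluster of chromosome 3, had 502, 635 and 457 normalised reads in wild type and 374, 431 and 439 in the libraries labelled Otud1-/-. Here too the groups did not overlap, although the gap between wild type 3 and Otud1-/- 3 was small. The change was -0.35 ± 0.16 (SE; limma adjusted p = 0.259), and -0.21 without wild type 2. Gbp3 (ENSMUSG00000028268.14, chr3:142560026-142573209, plus strand), their neighbour, had 700.4, 859.6 and 739 against 573, 666 and 731, and the groups overlapped because Otud1-/- 3 exceeded wild type 1. Its change was -0.22 ± 0.14 (SE; limma adjusted p = 0.396), the smallest in magnitude of the 8 GTPases.

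Gbp6 (ENSMUSG00000104713.4, chr5:105270702-105293698, minus strand), from the second cluster of the family on chromosome 5, was the least abundant GTPase of the set. It had 108, 134 and 48.9 normalised reads in wild type and 50.3, 96.7 and 59.5 in the libraries labelled Otud1-/-. Its groups overlapped widely, with wild type 3 the lowest of all, and the change was -0.42 ± 0.41 (SE; limma adjusted p = 0.603). It was -0.13 without wild type 2 and -0.85 without wild type 3. This gene is uncertain in a further way: 70.7% of its 50-base stretches recur elsewhere, 65.0% in Gm43302 and 45.9% in Gbp10, so its reads may be split among near copies. In Gbp7, Gbp3 and Gbp2 the shares were 12.7%, 3.75% and 2.03%.

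The immunity-related GTPases divide into regulators that sit on host membranes and restrain the family (Irgm1, Irgm2 and Igtp, also called Irgm3) and effectors that load onto the vacuole (Iigp1, also called Irga6). Irgm1 (ENSMUSG00000046879.7, chr11:48861968-48871683, minus strand), without which mice fail to control several intracellular bacteria, had 2181, 2129 and 1882 normalised reads in wild type and 1127, 1649 and 1456 in the libraries labelled Otud1-/-. Every Otud1-/- library was below every wild type library. The change was -0.56 ± 0.15 (SE), from 2064 ± 159.7 to 1411 ± 264 (SD, n = 3 each), with a limma adjusted p of 0.101 and 0.0415 with DESeq2.

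Igtp (ENSMUSG00000078853.8, chr11:58199556-58207591, plus strand) had 1169, 1264 and 1128 normalised reads in wild type and 594, 1027 and 748 in the libraries labelled Otud1-/-. The wild type libraries were tight and the Otud1-/- libraries spread, without overlap. Its change was -0.62 ± 0.18 (SE; limma adjusted p = 0.124), and it was called without Otud1-/- 2 (-0.83, adjusted p = 0.0403). The other 5 omissions gave limma adjusted p of 0.193 to 0.287, with a change of -0.44 without Otud1-/- 1. Irgm2 (ENSMUSG00000069874.7, chr11:58199618-58222782, plus strand), its neighbour, had 1362, 1458 and 1318 against 946, 1349 and 1127, and the groups overlapped through Otud1-/- 2 alone. The change of Irgm2 was -0.29 ± 0.14 (SE; limma adjusted p = 0.297), and -0.16 without Otud1-/- 1. Both genes share 162 exonic bases on the same strand, and 11.8% of the 50-base stretches of Igtp recur in Irgm2, so part of their reads may be exchanged.

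Iigp1 (ENSMUSG00000054072.11), the effector, had 544, 667 and 369 normalised reads in wild type and 322, 380.2 and 254 in the libraries labelled Otud1-/-. The groups met where Otud1-/- 2 slightly exceeded wild type 3. The change was -0.70 ± 0.23 (SE), from 527 ± 149.6 to 319 ± 63.0 (SD, n = 3 each), with a limma adjusted p of 0.161 and 0.0632 with DESeq2.

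**Figure D2:**
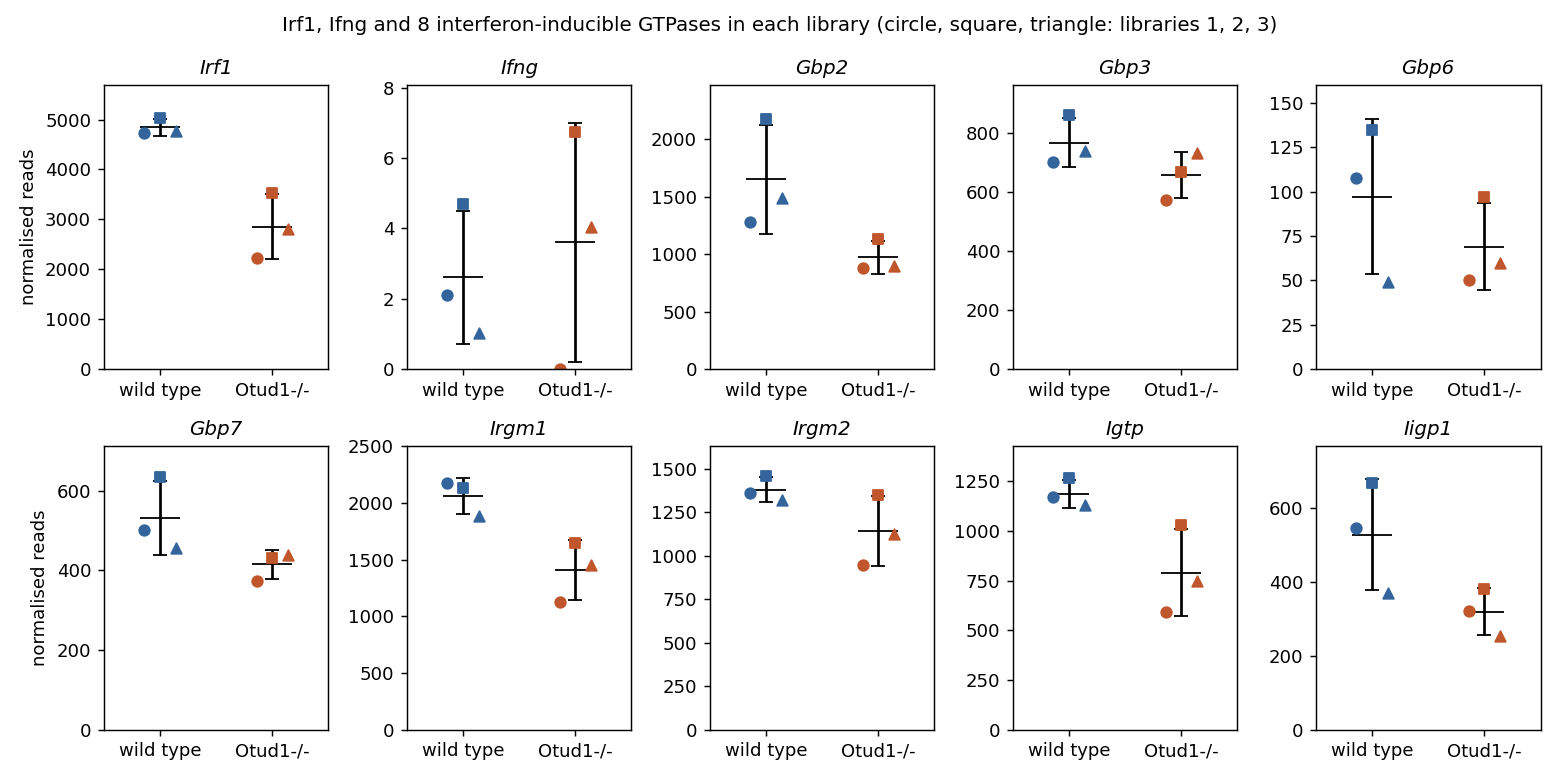
Normalised read counts (vertical axes, each from 0) of the 10 genes in the 3 libraries labelled wild type (blue) and the 3 labelled Otud1-/- (orange); symbols mark library numbers, and the black bar and whiskers give the mean ± SD. In Irf1, Gbp2, Gbp7, Irgm1 and Igtp all blue points lie above all orange ones, and in most panels the square, library 2, is the highest point of its group.

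Over the 10 genes, limma called 0 at an adjusted p under 0.05, where 0.949% of all tested genes were called. At an unadjusted p under 0.05 there were 5 (Irf1, Gbp2, Irgm1, Igtp and Iigp1), all lower, against 9.97% of all tested genes in that direction. At an adjusted p under 0.1, passed by Irf1, 2.48% of all tested genes were called lower. edgeR also called 0 (0.37% of all genes it tested), and DESeq2 called 3, namely Irf1, Gbp2 and Irgm1, all lower, where it called 4.42% of the genes it tested lower. Groups that did not overlap, lower in the libraries labelled Otud1-/-, were found for 5 of the 10 and for 13.3% of all tested genes, or 19.3% of the 12033 genes at least as abundant as Gbp6. Negative changes were found for all 8 GTPases, Irf1 making 9, against 48.3% of all tested genes and 54.5% of those at least as abundant as Gbp6. The median change of the 8 GTPases was -0.49, with -0.39 for the guanylate-binding proteins and -0.59 for the immunity-related GTPases, while the median over all tested genes was 0.02 and over the genes at least as abundant as Gbp6 -0.04. These genes share induction and in part sequence, and are not independent cases.

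The median change depended on the scaling. Scaling to total reads gave -0.29 for the 8 GTPases and moved the median of all genes to 0.22, and scaling to an epithelial marker list gave -0.15 and 0.36. These scalings shift all genes of a library alike, so the distance of the GTPase median from the median of all genes (-0.51 with the deposited scaling) is fixed by construction. Quantile normalisation, which does not, gave -0.50 for that distance and -0.58 for Irf1 (limma adjusted p = 0.126), against -0.81 for Irf1 with the deposited scaling. With the epithelial list, Gbp3 (0.12) and Irgm2 (0.057) turned positive. As a share of all reads, the 8 GTPases together took 413, 511 and 383 CPM in wild type and 314, 391 and 350.0 in the libraries labelled Otud1-/-, and on that scale wild type 3 fell below Otud1-/- 2.

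The genes also followed each other from library to library within a label. Leaving out Ifng, 9 genes remain. Wild type 2 held the highest of the 6 values in 8 of them, and Otud1-/- 1 the lowest in 7. A low Otud1-/- 1 was not particular to the set. By mean log2 level it was also the lowest library for the macrophage (8.12), epithelial (13.6), colon (11.87) and type I interferon (9.55) lists described below. It was not the lowest for the T and NK cell, endothelial and smooth muscle lists. The share over all genes was not counted. Among the libraries labelled Otud1-/-, library 2 was the highest in 7 of the 9. The summed normalised reads of the 8 GTPases were 7846, 9329 and 7435 in wild type and 4868, 6732 and 5712 in the libraries labelled Otud1-/-, so the groups were apart on that scale but the spread within each was large. Root mean square distances were taken between log2 values after centring each gene on its 6 libraries, and so include the difference between the labels. By them the nearest pairs in the set were Irf1 with Igtp (0.0973), Irgm1 with Igtp (0.105) and Gbp3 with Gbp7 (0.107).

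**Figure D3:**
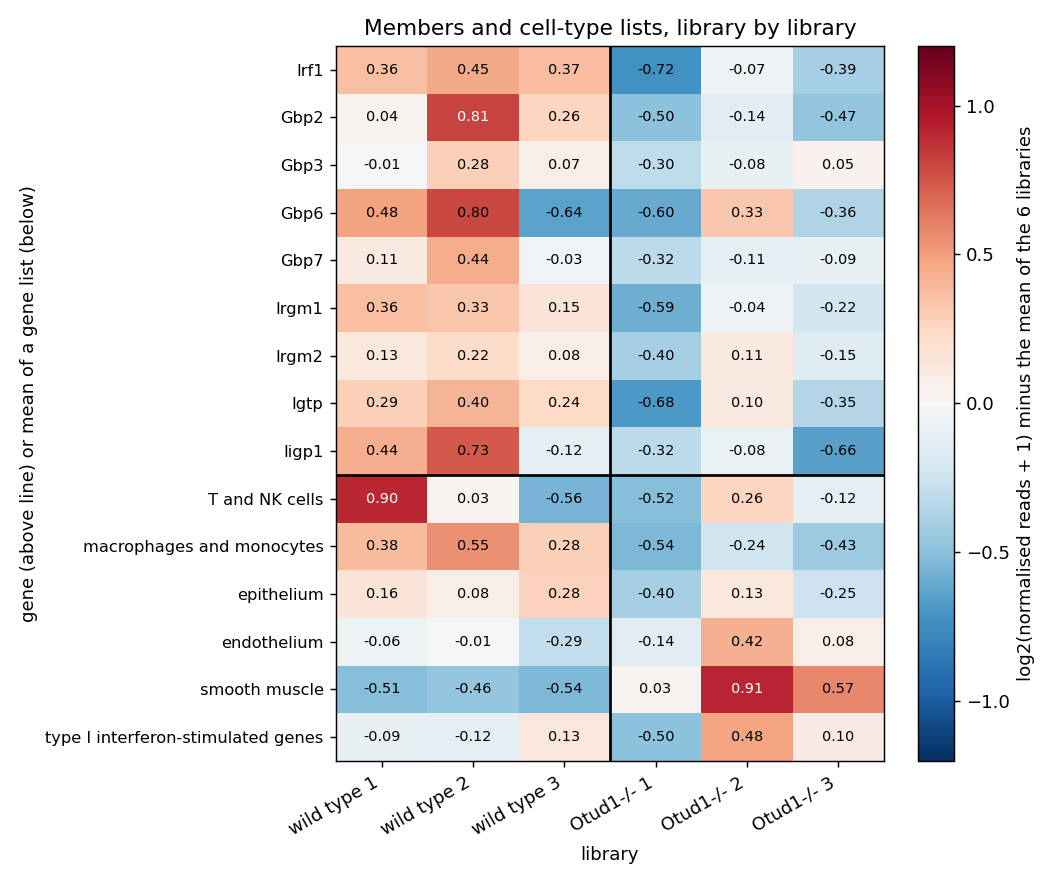
Colour and numbers give log2(normalised reads + 1) in each library (columns) minus the mean of the 6 libraries, for 9 genes of the set (above the line) and for the mean of 6 marker lists (below). Otud1-/- 1 is the lowest library for Irf1 (-0.72) and Igtp (-0.68), wild type 2 the highest for Gbp2 (0.81), and the macrophage list is positive in all wild type libraries and negative in all others.

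Per kilobase of merged exons, Irf1 was the most abundant of the set in both genotypes, with a mean level of 1218 normalised reads per kilobase in wild type and 717 in the libraries labelled Otud1-/-. In wild type the levels per kilobase then ran from Gbp2 (656) through Igtp (587), Irgm2 (374), Irgm1 (355), Gbp3 (235), Gbp7 (94.6), Iigp1 (90.5) and Gbp6 (16.3) to Ifng (2.02). The ranges of Gbp2 and Igtp, of Irgm2 and Irgm1, and of Gbp7 and Iigp1 overlapped, so those neighbours did not differ beyond their spread. In the libraries labelled Otud1-/- Igtp (391) stood beside Gbp2 (386), and each neighbouring pair from Igtp down to Gbp3 (201) overlapped. The remaining order was that of wild type, with Ifng (2.78) again last.

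Most other genes of both GTPase families also had negative changes, which were not tested against those of the set. Of 20 other family genes tested, limma called 0 in either direction, with 7 lower and 0 higher at an unadjusted p under 0.05 (9.97% of all tested genes were lower by that rule). edgeR called 0 and DESeq2 4 lower (4.42% of the genes it tested). Their changes were negative in 18 of 20, and groups did not overlap in 6, all lower (13.3% of all genes). Their median was -0.51, but -0.32 without wild type 1 and -0.17 with scaling to the epithelial list. Gbp4, Gbp5, Tgtp1 and Tgtp2 lay beyond any GTPase of the set, as did Gbp8 by a small margin (-0.749 against -0.737 for Gbp2). Irgq and Gm4841 had positive changes. The smallest p-values were those of Gbp4 (-1.03 ± 0.25 SE, limma adjusted p = 0.0851) and Gbp5 (-0.95 ± 0.23, 0.0858), which promotes inflammasome assembly in mouse macrophages. Next came the near-identical effectors Tgtp1 (-1.15 ± 0.30, 0.0932) and Tgtp2 (-1.05 ± 0.30, 0.115), whose reads may be split between them.

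**Figure D4:**
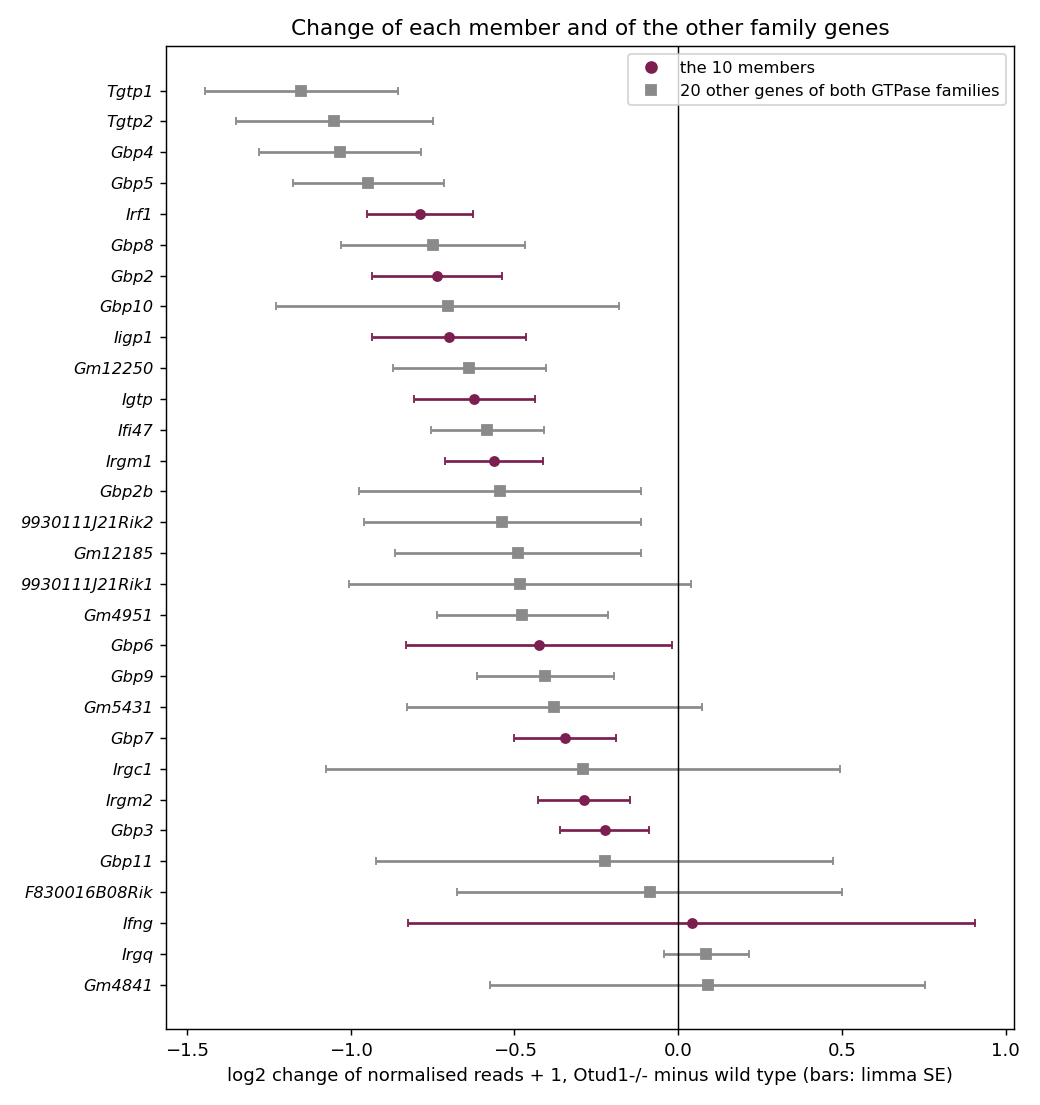
Log2 change of normalised reads + 1 (horizontal axis, Otud1-/- minus wild type by label, bars: limma SE) for the 10 genes (circles) and 20 other genes of both GTPase families (squares), sorted by change. All 8 GTPases of the set lie left of 0, between -0.74 (Gbp2) and -0.22 (Gbp3), and Ifng has the widest bar of the set.

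Upstream of the set, none of 15 genes that drive interferon gamma production was called by limma, and edgeR called 0. At an unadjusted limma p under 0.05, 3 were lower (9.97% of all tested genes), and DESeq2 called 2 lower (4.42% of the genes it tested). The median change of the 15 genes was -0.52, with 13 negative, and -0.18 with scaling to the epithelial list. Il18, which works with Il12 to release the cytokine, was at -0.91 ± 0.20 (SE; limma adjusted p = 0.0685), and Il15ra, which presents Il15, at -0.80 ± 0.21 (0.0986). Il27 (-1.76 ± 0.69, 0.212), a cytokine with few reads here, and its receptor gene Il27ra (-0.95 ± 0.43, 0.269) had wide errors.

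Of 14 receptor and signalling genes limma and edgeR called 0, with 12 negative changes and a median of -0.29. At an unadjusted limma p under 0.05, 7 were lower (9.97% of all tested genes). DESeq2 called 3 lower (4.42% of the genes it tested). The smallest p-values belonged to the feedback inhibitor Socs1 (-1.14 ± 0.28 SE, limma adjusted p = 0.0858) and the receptor chain gene Ifngr1 (-0.61 ± 0.17, 0.106). Socs3, a second inhibitor of cytokine receptors, was at -1.28 ± 0.33 (0.116), and the receptor kinase gene Jak2 at -0.37 ± 0.11 (0.128). Scaling to total reads moved the median of these 14 genes to -0.082 and scaling to the epithelial list turned it to 0.054.

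Downstream, the 23 interferon gamma targets outside the GTPases held the only called genes of the pathway lists: Ido1, Nos2 and Ubd fell (3 of 23, against 0.667% of all tested genes called lower). Of the 23, 22 changes were negative and 17 had groups that did not overlap, all lower (13.3% of all tested genes). DESeq2 called 14 lower (4.42% of the genes it tested) and edgeR 3. Their median was -0.89, but -0.59 without Otud1-/- 1, -0.43 without wild type 1 and Otud1-/- 1 together and -0.54 with scaling to the epithelial list. Ido1, which degrades tryptophan, had 319, 335 and 525 normalised reads in wild type and 40.1, 60.7 and 47.4 in the libraries labelled Otud1-/-, a change of -2.95 ± 0.26 (SE; limma adjusted p = 0.0028). Nos2, the inducible nitric oxide synthase, had 6490.1, 6339.9 and 5637 against 1971, 1099 and 1758 (-1.98 ± 0.21, 0.0086). Ubd, a ubiquitin-like modifier also called FAT10, had 928, 809 and 714 against 335, 236 and 312 (-1.48 ± 0.17, 0.0086). In each of the 3 genes the groups were far apart. Nos2 and Ubd missed the threshold without wild type 2 (adjusted p of 0.0703 for both) and without wild type 3 (0.0707 and 0.0668). Wars, which charges tRNA with tryptophan and is an interferon gamma target, was at -0.59 ± 0.12 (0.0551). The 8 GTPases lay nearer to 0 than these targets: their mean log2 level relative to the mean of the target list was 0.47 higher in the libraries labelled Otud1-/- (-0.52 ± 0.20 against -0.99 ± 0.30, SD over 3 libraries each), a difference that was not tested.

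Among 16 genes that load the GTPases onto membranes or act beside them in inflammasomes, limma and edgeR called 0. The unadjusted limma p was under 0.05 for 5 lower genes (9.97% of all tested genes were lower by that rule) and 1 higher. DESeq2 called 1 lower (4.42% of the genes it tested). The median of the 16 was -0.21, which turned to 0.14 with scaling to the epithelial list. Gsdmd, the pore protein of pyroptosis, was at -0.77 ± 0.15 (SE; limma adjusted p = 0.0519). Aim2, a DNA sensor that depends on guanylate-binding proteins during some bacterial infections in mice, was at -0.37 ± 0.11 (0.121), and Casp4, which encodes mouse caspase-11, at -0.60 ± 0.19 (0.142). Gabarapl1, of the autophagy conjugation system, had the opposite sign at 0.45 ± 0.13 (0.109).

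The 18 genes taken as markers of the type I interferon response had a median change of 0.06, with 8 negative and 10 positive. That median depended on single libraries and on scaling: it was 0.38 without Otud1-/- 1, -0.21 without Otud1-/- 2, 0.27 with total reads and 0.41 with the epithelial list. limma, edgeR and DESeq2 called 0 of them. By an unadjusted limma p under 0.05, 1 was lower, where 9.97% of all tested genes were lower, and 1 was higher. Mx2, an antiviral GTPase of another family, was at 0.55 ± 0.18 (SE; limma adjusted p = 0.151), while Ifit2 was at -0.64 ± 0.27 (0.257), Ifi44 at 0.35 ± 0.20 (0.376) and Cmpk2 at 0.24 ± 0.18 (0.493). The mean log2 level of the 8 GTPases minus that of this list was -0.47 ± 0.38 in wild type and -1.01 ± 0.27 in the libraries labelled Otud1-/- (SD, n = 3 each), and the difference of -0.54 was not tested.

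**Figure D5:**
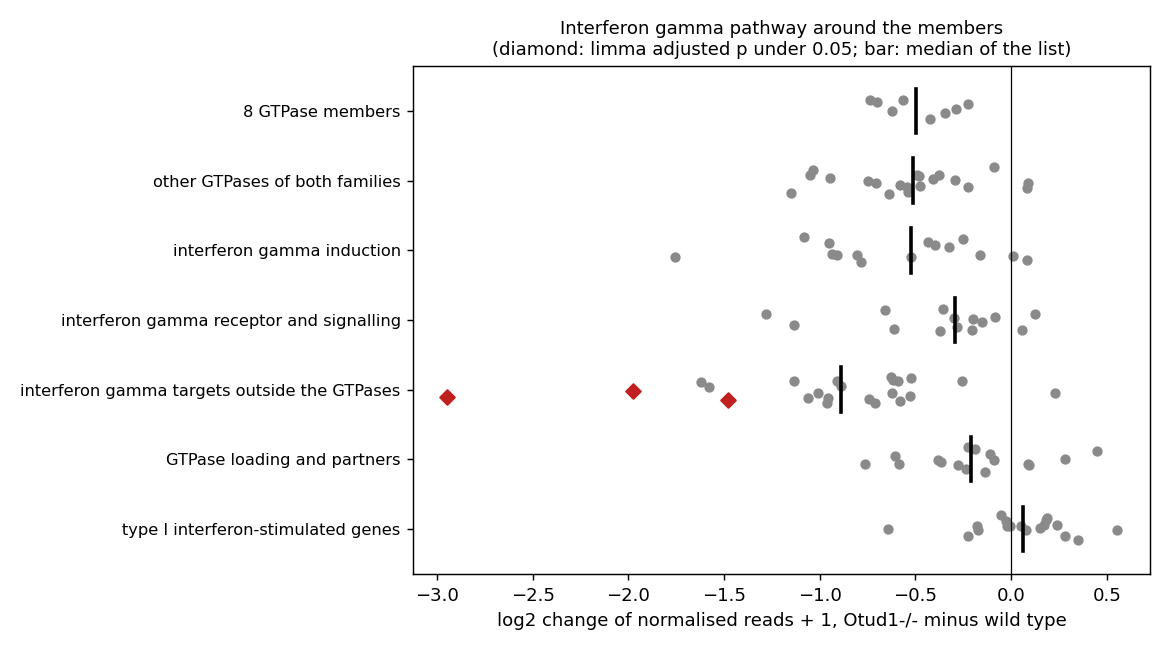
Log2 change of normalised reads + 1 (horizontal axis, Otud1-/- minus wild type by label) for the 8 GTPases and the genes of 6 lists; each point is a gene, black bars are list medians and red diamonds mark limma adjusted p under 0.05. The 3 diamonds (Ido1, Nos2 and Ubd) are all targets outside the GTPases, whose median is -0.89, while the type I interferon list has a median of 0.06, which ran from -0.21 to 0.38 on omission of single libraries.

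Markers of several cell types also differed between the labels. Of 15 macrophage and monocyte markers, all 15 were lower with a median of -0.82, none called by limma or edgeR. There were 13 at an unadjusted p under 0.05, where 9.97% of all tested genes were lower. DESeq2 called 9, where it called 4.42% of the genes it tested lower. Their summed normalised reads ranged from 16442 to 20305 in wild type and from 10752 to 11796 in the libraries labelled Otud1-/-. Itgam was at -1.24 ± 0.25 (SE; limma adjusted p = 0.0551), Ccr2 at -1.02 ± 0.21 (0.0601), Lyz2 at -0.75 ± 0.16 (0.0661) and C1qb at -0.63 ± 0.14 (0.0718). No marker of this list was at 0 in any library. The GTPases differed less: their mean log2 level relative to the macrophage list was 0.48 ± 0.12 in wild type and 0.80 ± 0.09 in the libraries labelled Otud1-/- (SD, n = 3 each).

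Of 20 T and NK cell markers, which mark the known sources of interferon gamma, limma, edgeR and DESeq2 called 0. By an unadjusted limma p under 0.05, 1 was lower, where 9.97% of all tested genes were lower, and 1 was higher. The 20 markers had 15 negative changes and a median of -0.40. Their sum was 1111 to 3061 in wild type and 1117 to 1881 in the libraries labelled Otud1-/-, so the groups overlapped, with wild type 1 far above the rest. The NK cell marker Ncr1 had 0.85 to 2.82 normalised reads in every library, and Klrb1c was at 0 in wild type 3. Wild type 1, the library richest in these markers, was the highest library of the 6 in 1 of the 9 genes. This describes 1 library, and a relation between these markers and the 9 genes was not tested.

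Of 15 epithelial markers 13 were lower, with a median of -0.50. Their sum was 484077 to 573896 in wild type and 311351 to 460043 in the libraries labelled Otud1-/-. limma and edgeR called 0, and 9 were lower at an unadjusted limma p under 0.05 (9.97% of all tested genes). DESeq2 called 4 lower (4.42% of the genes it tested). Relative to the epithelial list the 8 GTPases were at -4.62 ± 0.35 in wild type and -4.76 ± 0.04 (SD, n = 3 each, mean log2 levels), with every Otud1-/- library inside the range of the wild type libraries, which were more widely spread. Of 12 endothelial markers 9 had positive changes with a median of 0.26. All 15 smooth muscle markers had positive changes with a median of 1.06. limma called 5 of them higher (Myh11, Myl9, Synm, Cald1 and Tpm2), where 0.282% of all tested genes were called higher. edgeR called 0 of them. DESeq2 called 13 higher, where it called 669 of the 16803 genes it tested higher. The sum of that list was 57308 to 61081 in wild type and 89122 to 171231 in the libraries labelled Otud1-/-. Of 10 colon markers 8 had negative and 2 positive changes, with a median of -0.42. limma called only Fcgbp, which fell (-1.95 ± 0.13 SE, limma adjusted p = 0.00089), where 0.667% of all tested genes were called lower. edgeR called 1 lower and DESeq2 2. No marker of the epithelial, endothelial, smooth muscle or colon lists was at 0. The part of any of these shifts in the GTPase values was not tested.

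Outside all lists, the 6 genes whose library profiles were nearest to the mean profile of the 8 GTPases, among 11890 protein-coding genes with a mean of at least 50 normalised reads, were Dse, Dsc2, P4ha1, Slc43a3, Ier2 and Zeb2. Their root mean square distances were 0.0602 to 0.0979 on the log2 scale over the 6 libraries, where the median candidate was at 0.373. Dsc2, a desmosomal cadherin, had 5263, 5443 and 4609 normalised reads in wild type and 3155, 4396 and 3779 in the libraries labelled Otud1-/-. None of the 6 was called (limma adjusted p of 0.104 to 0.377). Nearest to Irf1 were Car9, a carbonic anhydrase (distance 0.0531, change -0.86, limma adjusted p = 0.0519), Nat2, an arylamine acetyltransferase (0.0620, -0.72, 0.0914), and Igsf5, a cell adhesion protein (0.0651, -0.86, 0.0428), where the median candidate was at 0.474. Of these, Igsf5 fell.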

How the data were processed

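Bulk RNA sequencing of 6 libraries (3 labelled wild type, 3 labelled Otud1-/-, grouped by the genotype label) was analysed. The authors deposited a normalised signal for each gene, here called normalised reads. Per the submitters' processing notes, mm10 served as the genome. Which aligner, read counter, strand setting and annotation made the values is not given in the sources used here. In every library 100% of the deposited signal values were whole multiples of a single step within 0.001 of a read. Dividing by the step gave whole reads, 15300937 to 19406407 per library, and the step was the reciprocal of the median-of-ratios size factor. On these reads edgeR called 62 genes and DESeq2 1412. Reads carry no molecular identifiers, so counting intervals and floors (3 reads) cover counting error only.

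Identifiers were matched to GENCODE M21, without version suffix (21336 of 21374 matched). The filter kept 21281 genes that reached 1 normalised read in 3 or more libraries. They were tested with limma 3.58.1 in R 4.3.3 (lmFit, eBayes with trend and robust) on log2(value + 1), two-sided, and p-values were adjusted over the whole table by Benjamini-Hochberg, with calls made under 0.05. Changes on this scale are understated for genes with few reads. Levels per kilobase used merged exon lengths, and recurring stretches were counted as shared 50-base words among annotated transcripts. Alternatives were other filters, pseudocounts (0.1 and 10), scalings, moderation, sample weights, a replicate block, edgeR 4.0.16 (quasi-likelihood), DESeq2 1.42.0 and the omission of libraries. The tests were tried on simulated data. Genes named were the 10 of the set, Otud1, up to 4 per list with the smallest p, the called members of the lists, and the nearest profiles (6 to the GTPases, 3 to Irf1). Also named were some colon, T and NK cell markers for their levels. Some other family genes were named for the sign or size of their change or for promoter matches. The genes of the set and the lists were chosen with earlier results of these data known.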

Additional observations from a re-analysis of the deposited data

How the results depend on the processing

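The number of genes called depended strongly on the test. Against 202 genes, a minimum mean of 5 gave 122, a pseudocount of 0.1 gave 118, scaling to total reads 413, scaling to the epithelial list 953, sample weights 564, edgeR 62 with either set of factors, DESeq2 1412, omission of wild type 1 and Otud1-/- 1 together 394 and a threshold of 0.1 gave 877. limma without trend and robust called 0 (3499 at an unadjusted p under 0.05), and omission of single libraries gave 10 to 340. Lower genes made up 70.3% of calls, against 60.1% with quantile normalisation, 24.9% with total reads, 11.2% with the epithelial list, 61.2% with sample weights and 52.6% with DESeq2. They made up 56.8% without Otud1-/- 1, and 48.7% without wild type 1 as well. The share of lower genes was higher with edgeR (75.8%), with the replicate block (100% of 18 calls) and without any other single library (79.8% to 90.9%). A minimum mean of 5 (73.8%) and a pseudocount of 0.1 (73.7%) raised it slightly. Of the 10 genes of the set, 0 were called, against 1 (Irf1) with sample weights or a threshold of 0.1, 3 with DESeq2 and 0 to 2 on omission of single libraries. Of the pathway lists 3 genes were called, against 6 with the epithelial list or sample weights, 0 without trend and robust, 24 with DESeq2, 5 without wild type 1 and Otud1-/- 1, 15 at a threshold of 0.1 and 1 to 6 on omission of single libraries. The GTPase median of -0.49 became -0.29 with total reads and -0.15 with the epithelial list, and was -0.69 to -0.34 on omission of single libraries. Ifng turned from 0.04 to -0.69 with a pseudocount of 0.1, -0.15 with quantile normalisation, and -0.00065, -0.31, -0.55 and -0.24 without wild type 1, wild type 3, Otud1-/- 2 and Otud1-/- 3 (-0.55 to 0.92 on omission of single libraries). Gbp3 turned to 0.12 and Irgm2 to 0.057 with the epithelial list. The calls of Ido1, Nos2 and Ubd were lost without trend and robust (adjusted p of 0.0880, 0.114 and 0.117). Replicate numbers did not pair the libraries (correlations of deviations of same-numbered libraries of -0.26, -0.10 and -0.09), and the replicate block left 18 calls, with Ubd at an adjusted p of 0.0536. The causes of these shifts were not tested. Of 727 single-gene values over 35 genes and these settings, 669 kept direction and side of the threshold, 42 passed it newly, 8 missed it newly and 8 turned. Depth limits Ifng alone of the set: it had 0 to 6 reads per library.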
